A study of Mus musculus with 8 samples.

Results

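Cluster 7 is 1 of 7 numbered groups of nuclei in the authors' deposited annotation of the mouse dorsal telencephalon, from which the cortex and the hippocampus develop. Its members are all nuclei that carry the cluster number 7, which gave 5200 of 67319 nuclei, 2571 of 33781 from wildtype and 2629 of 33538 from Pantr2 knockout samples. The 5 genes used to mark the cluster were Zfp385b, Kctd16, Rerg, Slit3 and Chrm3. The groups were 4 wildtype and 4 Pantr2 knockout samples, all dissected at E15.5 (embryonic day) and labelled with the strain C57BL/6J. The product of Pantr2 is a long noncoding RNA, and the labels do not describe its deletion further. Nuclei, not whole cells, were sequenced with a droplet method in which each unique molecular identifier (UMI) stands for 1 captured transcript molecule. The labels do not say whether each sample is 1 embryo or several, so the p-values below measure the spread between these samples, whatever its source.

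Wildtype replicates 1 to 4 held 452, 713, 747 and 659 nuclei of cluster 7, and knockout replicates 1 to 4 held 598, 642, 673 and 716. They were 5.51% to 9.20% of the nuclei of a wildtype sample and 5.88% to 9.84% of those of a knockout sample. These shares were not compared, because genes that define the cluster differed between the genotypes. The cluster's UMIs summed to 1460448 to 2586406 per sample. Pantr2 counts were not analysed here, so each genotype rests on the label of the sample. Xist UMIs were present in wildtype replicates 1, 2 and 3 and knockout replicates 2 and 3, and the Y-linked genes were high in the other 3 samples, so both genotypes held both sexes. Between any 2 libraries the shared nucleus barcodes were at most 0.37% of the smaller library.

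Postmitotic neurons of the dorsal telencephalon acquire different identities by their birth date and position, and are told apart by transcription factors, guidance receptors and channel genes. Slit proteins are secreted ligands that steer axons and migrating neurons through Robo receptors. Neuronal excitability is set by receptors for transmitters, among them the GABA-B receptor, whose auxiliary subunits are KCTD proteins, and the muscarinic acetylcholine receptors. Potassium and calcium channels then shape how a neuron responds.

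In wildtype nuclei all 5 marker genes were higher in cluster 7 than in each of the other 6 clusters. The levels in this paragraph are CPM, the UMIs of a gene divided by all UMIs of the cluster in a sample and scaled to 1000000, as a mean of the 4 wildtype samples. Slit3 had 3021 ± 231 CPM (SD, n = 4) in cluster 7 and 1161 CPM in cluster 6, the next highest. Zfp385b, a zinc finger protein gene, had 610 ± 68.3 CPM against 123 CPM in cluster 3. Chrm3, the M3 muscarinic acetylcholine receptor gene, had 353 ± 21.4 CPM against 128 CPM in cluster 6. Kctd16, which encodes an auxiliary GABA-B receptor subunit, had 258 ± 56.4 CPM against 76.1 CPM in cluster 6. Rerg, a Ras-related small GTPase gene, had 130.1 ± 8.8 CPM against 12.4 CPM in cluster 5. Cluster 6 was thus the nearest to cluster 7 for 3 of the 5 markers, and clusters 3 and 5 for the other 2. The clusters were made from these same counts, so these levels describe the cluster and are not a test of it.

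The marker genes were not equally frequent within the cluster. With every nucleus reduced by random draws to 1400 UMIs, Slit3 was detected in 84.3% to 92.6% of the wildtype cluster 7 nuclei of a sample and Zfp385b in 35.8% to 46.3%. Kctd16 was detected in 18.4% to 26.9%, Chrm3 in 17.3% to 22.5% and Rerg in 10.8% to 15.3%. In cluster 4, whose nuclei have the progenitor markers, the same shares were 3.5% to 4.3% for Slit3 and 0.8% to 2.0% for Zfp385b. The highest shares outside cluster 7, as means of the wildtype samples, were 59.2% for Slit3, 6.79% for Kctd16 and 9.83% for Chrm3, all in cluster 6, 10.2% for Zfp385b in cluster 3 and 1.27% for Rerg in cluster 5. Slit3 was therefore also frequent in cluster 6, and its mean share in cluster 7 was 1.51 times as high. Without thinning, Slit3 was found in 90.7% to 96.7% and Zfp385b in 48.5% to 63.4% of wildtype nuclei, at median depths of 2976 to 3269 UMIs per nucleus in cluster 7 and 2652 to 3113 in cluster 4. Of the wildtype nuclei of cluster 7, 47.8% to 64.8% held UMIs of at least 2 of the 5 markers and 22.1% to 30.5% of at least 3, compared with 2.31% to 3.85% and 0.30% to 0.38% of the nuclei of the other clusters. Nuclei with a Zfp385b UMI had a Rerg UMI in 17.3% to 22.3% of cases and those without it in 7.2% to 9.3%. For Slit3 the corresponding Zfp385b shares were 37.0% to 48.2% with and 27.3% to 30.3% without a Slit3 UMI. The counts per nucleus are small, and a missing UMI does not show that a gene was not expressed.

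The genes that led the cluster were taken as the 15 with the highest ratio of their cluster 7 level to the highest level of any other cluster, among 6668 genes at 20 CPM or more in wildtype cluster 7. In all, 686 of these genes were highest in cluster 7, 36 by at least 2 times and 10 by at least 4 times. Among the 15, in this order, were Gm36560, Fam163a, Rerg, Ifi203-ps, Gm32647, Trpc7, Itgbl1, Zfp385b, Mndal, Grik4, Kctd16, Eps8, Olfml2b and Nr4a3. The first, the long noncoding RNA gene Gm36560, had 66.0 CPM in cluster 7 and at most 2.74 CPM elsewhere. Fam163a had 66.7 CPM against 3.15 CPM. Gm32647, also a long noncoding RNA gene, was the most abundant of the 15 at 1846 ± 284 CPM (SD, n = 4) against 237 CPM in cluster 5. Trpc7, a calcium-permeable channel gene, had 91.7 CPM against 15.99, and Grik4, a kainate-type glutamate receptor subunit gene, had 129.5 CPM against 26.7. Eps8, a regulator of the actin cytoskeleton, had 171 CPM against 51.5 CPM in cluster 6. The fifteenth gene, Nr4a3, an activity-induced nuclear receptor gene, had a ratio of 3.04, and the first gene not taken had 2.97. Of the 15, 10 were also among the 15 leading genes of the knockout samples, and 14 when the share of nuclei with a UMI was ranked after thinning.

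**Figure D1:**
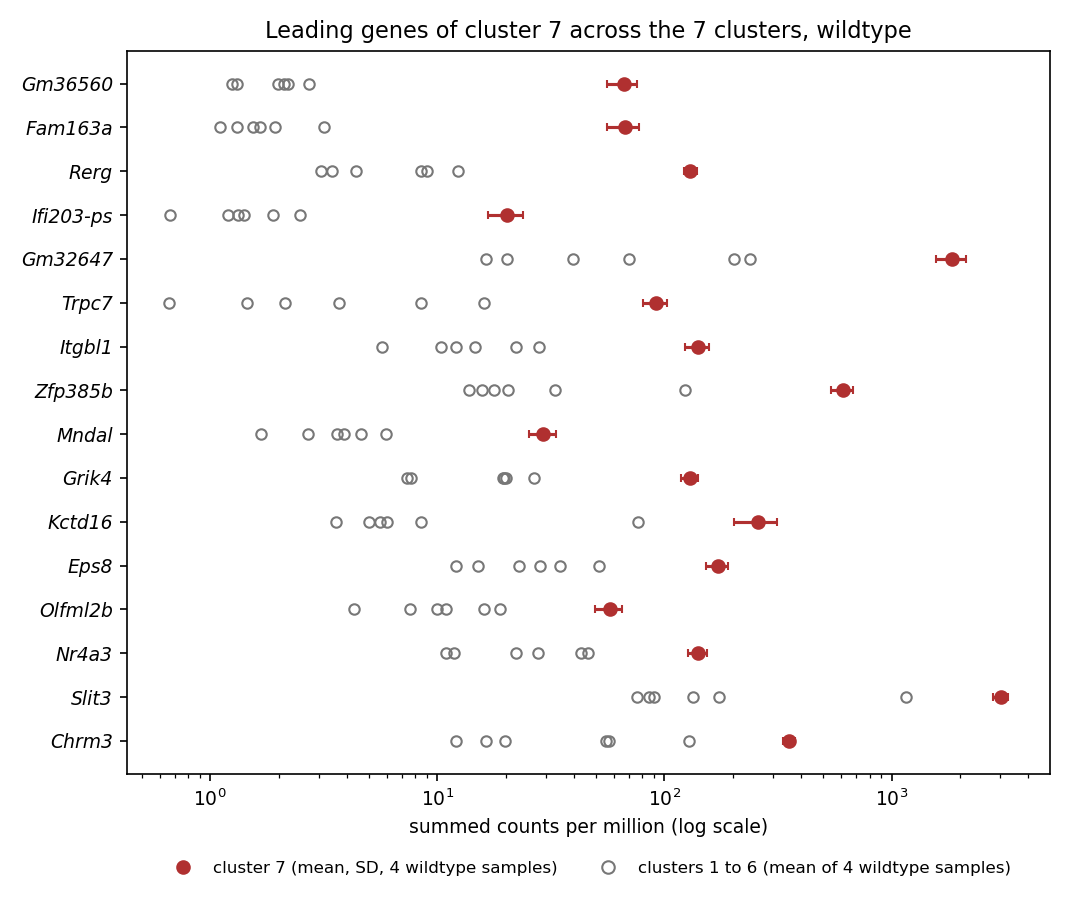
Levels of 14 of the 15 leading genes of cluster 7, with Slit3 and Chrm3, in wildtype samples (CPM, log axis). Red points are cluster 7 means with their SD over 4 samples, and open circles are the means of clusters 1 to 6. All red points lie to the right of the open circles in their row.

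Cluster 7 had a neuronal profile. The pan-neuronal genes Rbfox3, Snap25, Map2, Dcx and Syt1 summed to 2906 CPM in wildtype cluster 7 and to 1094 CPM in cluster 4, and 5 genes of glutamatergic neurons to 1489 CPM against 550 CPM. In clusters 1, 2, 3, 5 and 6 these sums were 2532 to 3188 CPM and 1149 to 1996 CPM, so cluster 7 lay within their range. The 7 apical progenitor genes measured summed to 631 CPM in cluster 7 and 2103 CPM in cluster 4. Upper-layer cortical neuron genes summed to 1035 CPM, which was the lowest of the 7 clusters, against 7089 CPM in cluster 1, and none of the 8 measured genes was highest in cluster 7. Of 6 genes listed for hippocampal neurons, 3 were highest in cluster 7. Zbtb20, a transcription factor gene, had 4653 CPM against 3499 in cluster 4, Nrp2, a semaphorin receptor gene, had 760 CPM against 420 in cluster 6, and the third was Grik4. The other members had lower levels, with Lef1 at 132 CPM (167 in cluster 4), Prox1 at 25.2 CPM (30.3 in cluster 4) and Wfs1 at 1.74 CPM (5.52 in cluster 4). The description of the cluster by high Zfp385b comes from these same counts, so the level of that gene is no test of it. No cell type name beyond neurons is given here. Lists for Cajal-Retzius cells, oligodendrocyte precursors, microglia, vascular cells and meningeal fibroblasts summed to at most 51.6 CPM.

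Over 8951 genes the log2 CPM of wildtype cluster 7 correlated with that of cluster 6 at r = 0.937 and of cluster 2 at r = 0.936, followed by 0.922 for cluster 1 and 0.919 for cluster 3, 0.879 for cluster 5 and 0.744 for cluster 4. These are correlations across genes, which share libraries and are not independent, and are given as a description. Other members of the pathways of the markers had very different levels. Robo1, a Slit receptor gene, had 2322 CPM in cluster 7 (4628 in cluster 2) and Robo2 had 237 CPM, the lowest of the 7 clusters. Gabbr1 had 115 CPM and Gabbr2 206 CPM, the 2 subunits of the GABA-B receptor, whereas the other measured KCTD genes Kctd8 and Kctd12 had 19.2 and 8.65 CPM. Of the muscarinic receptor genes Chrm1 and Chrm2 had 6.57 and 3.75 CPM. Highest in cluster 7 among further fixed lists were Chrna7, a nicotinic acetylcholine receptor subunit gene (423 CPM against 200.3 in cluster 1), Cacna2d3, a calcium channel auxiliary subunit gene (463 CPM against 160 in cluster 3), and Gabra2, a GABA-A receptor subunit gene (1048 CPM against 667 in cluster 6). Axon guidance genes in this position were Nrp1 (1530.0 CPM against 917 in cluster 1), Sema3c (293 CPM against 186 in cluster 5) and Epha6 (1061 CPM against 775 in cluster 6).

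Knockout was then compared with wildtype within cluster 7, which addressed whether loss of Pantr2 changes expression in these neurons. The sums of UMIs per sample were tested with edgeR's quasi-likelihood test, and p-values were adjusted over all 10548 genes tested by the Benjamini-Hochberg method; genes with an adjusted p under 0.05 are called. In this comparison 109 genes were called, 1.03% of those tested: 61 were higher in knockout (0.578%) and 48 lower (0.455%), and 1021 genes had an unadjusted p under 0.05. The groups of 4 samples did not overlap in CPM for 593 genes, which is 5.62% of those tested. With the replicate number as a block, 255 genes were called, although the labels do not say what that number marks. Leaving out knockout replicate 2 gave 63 called genes, leaving out wildtype replicate 4 gave 71, and 71 were called when nuclei with a deposited hybrid doublet score over 0.25 were left out. The median log2 fold change over all tested genes was 0.0007. Of the 109 genes, 73 were also called in the other nuclei, 72 of them in the same direction, where 823 of 13880 tested genes were called. Over the single clusters the log2 fold change ran from 5.03 to 7.32 for Dnajc22 and from -3.23 to -2.54 for Gm17167. A call in cluster 7 therefore does not show that a change is particular to these neurons.

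Some of the genes that changed most share nearly their whole sequence with another gene. How the counting divides reads between such genes was not tested. Gm28438, an unprocessed pseudogene of chromosome 1, and mt-Nd3, a subunit gene of respiratory complex I on the mitochondrial genome, are printed here because they had the largest rise and the largest fall. The lines give the first 43 bases of each transcript in GENCODE M21 (GRCm38; mt-Nd3 on the mitochondrial genome from 9459 to 9806, plus strand, and Gm28438 on chromosome 1 from 24612775 to 24613119, minus strand), 5′ to 3′, with the mismatched base in capitals:
mt-Nd3: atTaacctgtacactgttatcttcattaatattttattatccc
Gm28438: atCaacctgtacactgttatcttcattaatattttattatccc
Over 345 aligned bases the transcripts had 1 mismatch, T3C, counted from the first base of mt-Nd3 with its base named first (99.71% identity).

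mt-Nd3 had 63.2, 244, 231 and 406 CPM in wildtype replicates 1 to 4 and 0, 1.69, 5.29 and 4.85 CPM in knockout replicates 1 to 4 (CPM scaled with TMM factors here and below). Every knockout sample was below every wildtype sample, and the log2 fold change was -6.26 ± 0.58 (SE; edgeR-adjusted p = 1.39e-05). Over all wildtype samples Gm28438 had 1 UMI and over all knockout samples 3023, or 201, 402, 543 and 239 CPM in knockout replicates 1 to 4. Relative to the cluster totals this is a 3056-fold ratio (95% exact binomial interval 548 to 120756, counting error only), and the edgeR-adjusted p was 1.89e-08. The levels of both genes together were 63.2, 244.5, 231 and 406 CPM in wildtype and 200.5, 404, 548 and 244 CPM in knockout, so these sums overlapped between the groups. The mitochondrial genes took 1.64%, 2.34%, 2.91% and 2.21% of UMIs in wildtype and 2.08%, 3.10%, 2.98% and 2.47% in knockout. No other of the 15 listed genes of the mitochondrial genome was called. With the replicate block 5 of the 15 were called.

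Tpm3-rs7, a sequence related to the actin-binding protein gene Tpm3, had 1 UMI in wildtype and 336 UMIs in knockout samples, a ratio of 340 (95% exact interval 60.6 to 13457). Its transcript is 99.1% identical to one of Tpm3 over 2108 bases, and the division of reads between the 2 genes was not tested. Gm49450 rose from 40.4 ± 6.85 to 338 ± 70.5 CPM (mean ± SD, n = 4), with 49.8, 38.1, 33.5 and 40.2 CPM in the wildtype samples and 236, 350.4, 398 and 367 in the knockout samples. It overlaps the tubulin genes Tuba1a and Tuba1b in the annotation and is 98.55% identical to Tuba1a over 899 bases. The log2 fold change of Gm49450 was 3.09 ± 0.16 (edgeR-adjusted p = 1.28e-08).

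The other genes that rose most were low in or nearly missing from wildtype cluster 7. Dnajc22, which encodes a J-domain co-chaperone, had 1.35, 1.28, 0.394 and 0 CPM in the wildtype samples and 42.8, 38.0, 37.4 and 36.9 CPM in the knockout samples. The wildtype samples held 6 UMIs in all, and the log2 fold change of 5.69 ± 0.31 depends on how counts near 0 are treated. Qrfpr, the receptor gene of a neuropeptide, had 2 UMIs in wildtype and 117 in knockout samples, a ratio of 59.1 (95% exact interval 16.01 to 494). Gm11496 had 1 UMI in wildtype and 85 in knockout samples, a ratio of 85.9 (95% exact interval 15.01 to 3434). Gm42743 had 0 UMIs in wildtype and 82 in knockout samples, which is at least 27.6-fold higher against a floor of 3 UMIs over the group.

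Further increases concerned genes that were measured in both groups. 4930578M01Rik, a noncoding transcript of chromosome 15, had 60.6, 57.4, 52.4 and 80.7 CPM in wildtype and 213, 239, 238 and 258 CPM in knockout samples. Its log2 fold change was 1.92 ± 0.12 (edgeR-adjusted p = 7.34e-08) and no knockout sample overlapped a wildtype sample. Adamtsl4, a gene of an extracellular matrix protein, had 5.38, 9.85, 10.2 and 15.1 CPM and 25.4, 38.0, 42.7 and 31.5 CPM in the same order, with a log2 fold change of 1.72 ± 0.23 (edgeR-adjusted p = 5.78e-04). Gm6209 had 0.864 to 2.02 CPM in wildtype and 11.6 to 21.6 CPM in knockout samples (log2 fold change 3.70 ± 0.34). Bmp3, which encodes a secreted protein of the BMP family, had 3.36, 8.14, 7.88 and 3.45 CPM in wildtype and 18.5, 31.7, 15.9 and 11.6 CPM in knockout samples, a log2 fold change of 1.71 ± 0.34 (edgeR-adjusted p = 0.0234). Bmp3 was no longer called without wildtype replicate 1, without wildtype replicate 4 or without knockout replicate 2, with edgeR-adjusted p-values of 0.0535, 0.0987 and 0.0952. Hbb-y, an embryonic beta-like globin gene of red blood cells, had 4.04, 7.28, 2.76 and 3.02 CPM in wildtype and 13.9, 29.6, 18.9 and 34.9 CPM in knockout samples (log2 fold change 2.51 ± 0.34; edgeR-adjusted p = 8.62e-04). The 5 erythroid genes measured summed to 268 to 508 CPM in wildtype and 195 to 537 CPM in knockout cluster 7, and the other 4 were not called. All 5 were lower in wildtype cluster 7 than in any other cluster. The part of red blood cell RNA in the Hbb-y difference was not tested.

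**Figure D2:**
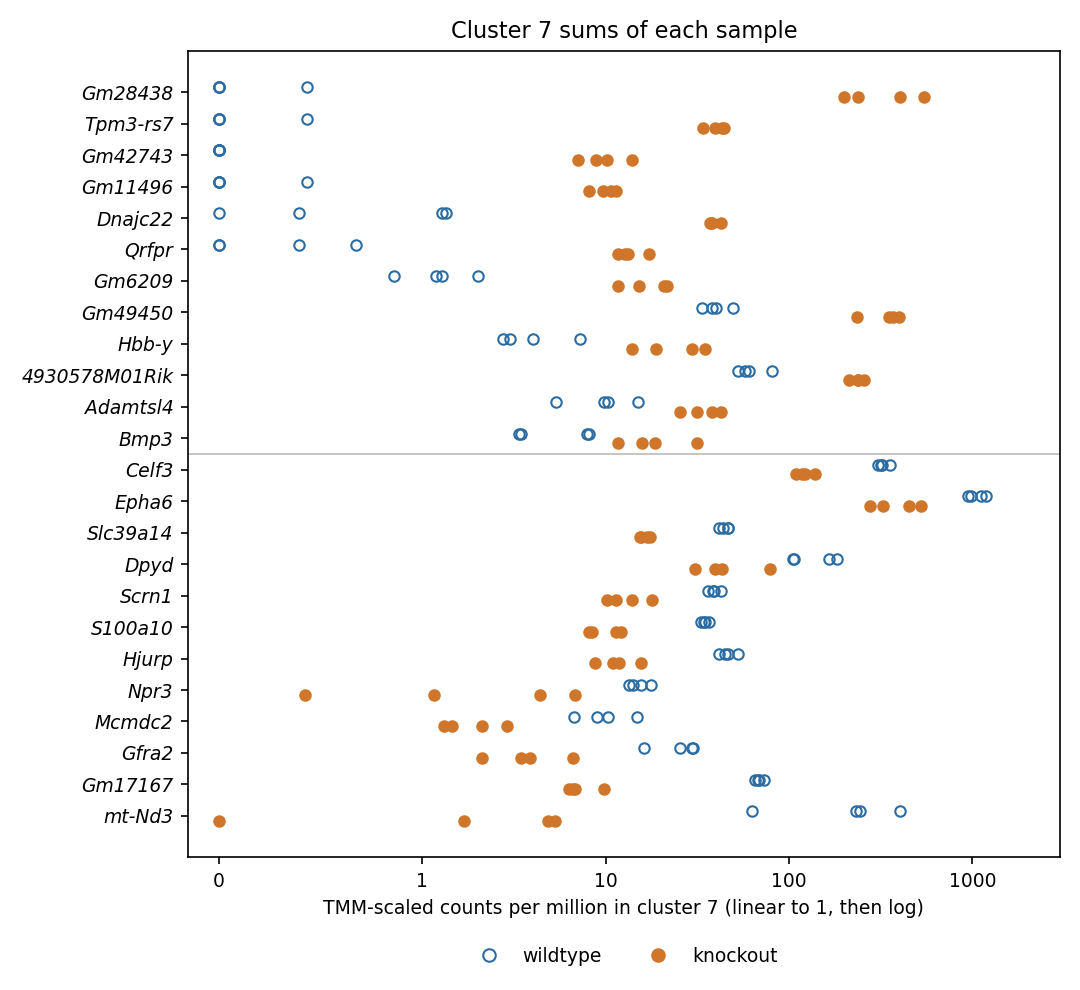
Each sample's level of the 12 genes that were named for their rise (above the line) and the 12 for their fall (below it) in cluster 7, in TMM-scaled CPM on an axis that is linear to 1 and logarithmic above. Open blue circles are the 4 wildtype samples and orange points the 4 knockout samples, and the 2 groups do not overlap for any of the 24 genes.

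Among the genes that fell, Gfra2 encodes a receptor of the GDNF family of neurotrophic factors and is itself highest in cluster 7 among the wildtype clusters (25.4 against 18.0 plain CPM in cluster 3). It had 29.6, 16.3, 30.0 and 25.5 CPM in wildtype and 3.47, 2.11, 6.61 and 3.88 CPM in knockout samples. Every knockout sample lay below the lowest wildtype sample, and the log2 fold change was -2.62 ± 0.29 (edgeR-adjusted p = 1.13e-04). Gm17167, a noncoding transcript, had 72.7, 67.7, 65.4 and 69.1 CPM and 9.82, 6.34, 6.61 and 6.79 CPM, with a log2 fold change of -3.23 ± 0.15 (edgeR-adjusted p = 6.72e-09). Hjurp, the chaperone of the centromeric histone CENP-A, had 46.4, 45.0, 41.4 and 52.7 CPM in wildtype and 15.6, 11.8, 11.01 and 8.73 CPM in knockout samples (log2 fold change -1.98 ± 0.16; edgeR-adjusted p = 3.69e-06). Celf3, an RNA-binding splicing regulator gene, had 316, 357, 322 and 306 CPM in wildtype and 118, 138, 122 and 109 CPM in knockout samples (log2 fold change -1.41 ± 0.09; edgeR-adjusted p = 7.34e-08). These 3 genes kept their adjusted p under 0.05 in all 14 alternative fits.

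Epha6, a receptor tyrosine kinase gene that binds ephrin-A ligands, had 949, 984, 1114 and 1190.4 CPM in wildtype and 451, 277, 327 and 527 CPM in knockout samples. Its log2 fold change was -1.42 ± 0.15 (edgeR-adjusted p = 8.42e-05), and it was the most abundant of the 12 genes named for their fall. Dpyd, the gene of the first enzyme of pyrimidine breakdown, had 105, 106, 165 and 183 CPM and 39.3, 30.9, 43.2 and 78.6 CPM in the same order, a log2 fold change of -1.56 ± 0.24. The remaining named genes that fell were S100a10 (33.0 to 36.8 against 8.09 to 12.1 CPM), an annexin partner gene, the metal transporter gene Slc39a14 (41.8 to 46.7 against 15.4 to 17.5 CPM), Scrn1 (36.4 to 42.6 against 10.1 to 17.9 CPM), Npr3, a natriuretic peptide receptor gene (13.5 to 17.7 against 0.423 to 6.79 CPM), and Mcmdc2 (6.70 to 14.8 against 1.32 to 2.89 CPM). Of the 24 named genes, 11 overlap another annotated gene in GENCODE M21, 8 of them on the opposite strand, and 4 have a near-identical copy. Since the strand setting of the counting is not given in the sources used here, it is unknown whether reads of overlapping genes on opposite strands were told apart.

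Of the 5 genes used to mark the cluster, Kctd16 was called and the other 4 were not. Kctd16 had 199.8, 216, 328 and 288 CPM in wildtype and 151, 142, 166 and 164 CPM in knockout samples, a log2 fold change of -0.74 ± 0.13 (edgeR-adjusted p = 0.0101). All knockout samples lay below all wildtype samples, but the adjusted p was 0.0512 without wildtype replicate 4 and 0.062 without knockout replicate 2. Zfp385b had 540.3, 586, 600.0 and 707 CPM in wildtype and 457, 361, 429 and 676 CPM in knockout samples, which overlapped (log2 fold change -0.34 ± 0.15; edgeR-adjusted p = 0.469). Chrm3 had 328, 335, 367 and 380.4 CPM and 551, 431, 381 and 490.5 CPM, with an edgeR-adjusted p of 0.1 and a log2 fold change of 0.39 ± 0.10. These groups only just did not overlap, and in plain CPM they did, with 380.8 in wildtype replicate 4 and 371.9 in knockout replicate 3. With the replicate block, Zfp385b was called at an edgeR-adjusted p of 0.0245 and Chrm3 at 0.0245; Zfp385b was also called without knockout replicate 4 (0.0116) and Chrm3 without knockout replicate 3 (0.0278). Slit3 had 2637, 3042, 3266 and 3119 CPM in wildtype and 2687, 3201, 3324 and 2729.9 CPM in knockout samples and Rerg 115, 135, 136 and 133 and 105, 132, 117 and 135 CPM. Their log2 fold changes were -0.01 ± 0.09 and -0.09 ± 0.10 (edgeR-adjusted p = 0.986 and 0.868), and their groups overlapped. Gm32647 was the only other of the 15 leading genes that was called: it had 1786, 1524, 2271 and 1797 CPM in wildtype and 1327, 1346, 1342 and 1221 CPM in knockout samples (log2 fold change -0.49 ± 0.10; edgeR-adjusted p = 0.023). The adjusted p of Gm32647 was 0.139 when high hybrid scores were left out, 0.0646 without wildtype replicate 4, 0.0736 without knockout replicate 2 and 0.0546 without knockout replicate 3. Pantr1, a long noncoding RNA gene near the targeted locus, had 135, 95.1, 115 and 117 CPM in wildtype and 164, 66.8, 74.9 and 114 CPM in knockout samples, which overlapped (edgeR-adjusted p = 0.914), and none of the 8 listed neighbours of the locus was called.

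Over 43 lists of cell type markers and pathways, 17 of 299 tested genes were called (5.69%), and 27 lists held none. The background over all genes was 1.03%. The lists were chosen with earlier results of these data known, so the 2 shares side by side are no test. Transcription factors of neuronal identity had 5 called members of 25 tested, all higher in knockout. Sox5, which acts in deep-layer neurons, had 1346, 1354, 1438 and 1218 CPM in wildtype and 1921, 2284, 2486 and 1568 CPM in knockout samples. Every knockout sample of Sox5 was above every wildtype sample (log2 fold change 0.62 ± 0.11; edgeR-adjusted p = 0.0116). Zfpm2, a cofactor of GATA factors that is listed for corticothalamic neurons, rose from 1821 ± 126 to 2456 ± 266 CPM (mean ± SD, n = 4; log2 fold change 0.43 ± 0.08). Nfia, a nuclear factor I gene, had 1747 to 2022 CPM in wildtype and 2274 to 2519 CPM in knockout samples (edgeR-adjusted p = 0.0223). Nfib, of the same family, had 3382 to 3603 CPM and 3909 to 4447 CPM (edgeR-adjusted p = 0.0482). Neurod6, a basic helix-loop-helix factor of excitatory neurons, had 281 to 334 CPM in wildtype and 386 to 457 CPM in knockout samples (edgeR-adjusted p = 0.0158). The median log2 fold change of the 25 factors was 0.10, beside 0.0007 over all tested genes. Each of the 5 lost its call when at least 1 library was left out, with an edgeR-adjusted p of 0.062 for Sox5 without knockout replicate 2 and of 0.0651 for Neurod6 without wildtype replicate 4. The highest value over all alternatives was 0.0979 for Zfpm2 and 0.112 for Nfia, both with low hybrid scores, and 0.171 for Nfib, without knockout replicate 2.

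Among 22 potassium channel genes tested, 2 were lower and 1 was higher. Kcnd2, an A-type potassium channel gene, had 340.0 to 425 CPM in wildtype and 252 to 299.8 CPM in knockout samples (edgeR-adjusted p = 0.00476), and Kcnt2, a sodium-activated potassium channel gene, had 173 to 222 and 233 to 292 CPM (edgeR-adjusted p = 0.0436). Of 14 calcium and sodium channel genes, Cacna2d3 rose from 462 ± 34.9 to 656 ± 8.82 CPM (mean ± SD, n = 4; edgeR-adjusted p = 0.00108), and this call held in all 14 alternative fits. No member was called among 19 glutamate receptor, 9 GABA-A receptor, 8 Slit and Robo, 10 netrin, 18 semaphorin pathway and 19 contactin, teneurin and latrophilin genes tested. Epha6 was the only called gene of 14 ephrins and Eph receptors, Gfra2 of 4 GDNF family receptor genes and Kctd16 of 5 genes of the GABA-B receptor and KCTD proteins. Cdh13, a cadherin without a transmembrane domain, was the only called member of 20 cadherins and had 600.2, 415, 475 and 436 CPM in wildtype and 801, 954, 826 and 529 CPM in knockout samples (edgeR-adjusted p = 0.0351); its groups overlapped. Nes was the only called gene of 6 apical progenitor markers tested and Rnd2 of 3 markers of migrating newborn neurons, and none of 5 intermediate progenitor markers was called. Nes had 12.1 to 17.7 CPM in wildtype and 21.4 to 30.1 CPM in knockout samples (edgeR-adjusted p = 0.0279). Rnd2, a small GTPase gene of migrating neurons, had 34.7 to 48.8 and 58.1 to 71.9 CPM (edgeR-adjusted p = 0.0272). Several of these calls lay near the threshold and were lost when any 1 of several libraries was left out. Without knockout replicate 2 the edgeR-adjusted p was 0.137 for Kcnt2, 0.156 for Cdh13, 0.129 for Nes and 0.135 for Rnd2, and without wildtype replicate 4 it was 0.152 for Kcnt2, 0.137 for Cdh13 and 0.0978 for Nes.

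With the replicate block, 48 list genes were called, among 255 genes in all (2.42% of those tested). The interneuron list went from 0 to 4 called members of 6 tested, and the median log2 fold change of those 6, which passed the filter on low counts, was -1.17 without the block. Its 9 measured genes summed to 78.9 to 238 CPM in wildtype cluster 7 and to 27.9 to 94.7 CPM in knockout, and its wildtype mean of 134 CPM lay within the 107.5 to 238 CPM of the other clusters. The part of interneuron RNA in the differences between genotypes was not tested.

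The called genes lay unevenly on the chromosomes. Chromosome 3 held 23 of the 109 (4.47% of 514 tested genes), chromosome 14 held 18 (5.16% of 349) and chromosome 15 held 9 (2.15% of 418), compared with 1.03% over all genes. Neither chromosome 12, with 414 tested genes, nor chromosome X, with 370, held any. In windows of 10 Mb, taken with the positions of the deposited gene table, the most were 8 of 42 tested genes on chromosome 14 from 70 to 80 Mb, of which 7 fell: Slc39a14, Xpo7, Gfra2, Sucla2, Esd, Lrch1 and Tsc22d1, while Vwa8 rose. On chromosome 15 from 90 to 100 Mb, 5 of 65 tested genes were called and all rose: Gm49450, 4930578M01Rik, Tuba1c, Dnajc22 and Spats2. On chromosome 3 from 110 to 120 Mb, 4 of 24 fell, Col11a1, Gm26871, Gm37928 and Dpyd, and from 50 to 60 Mb, 4 of 35 rose, Gm6209, Gm2447, Lhfp and Nbea. On the same chromosome from 90 to 100 Mb, 4 of 76 were called, of which S100a10 and Celf3 fell and Adamtsl4 and Gm42743 rose. No other window held 4 or more calls. The windows were read out after the calls were known and were given no test.

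**Figure D3:**
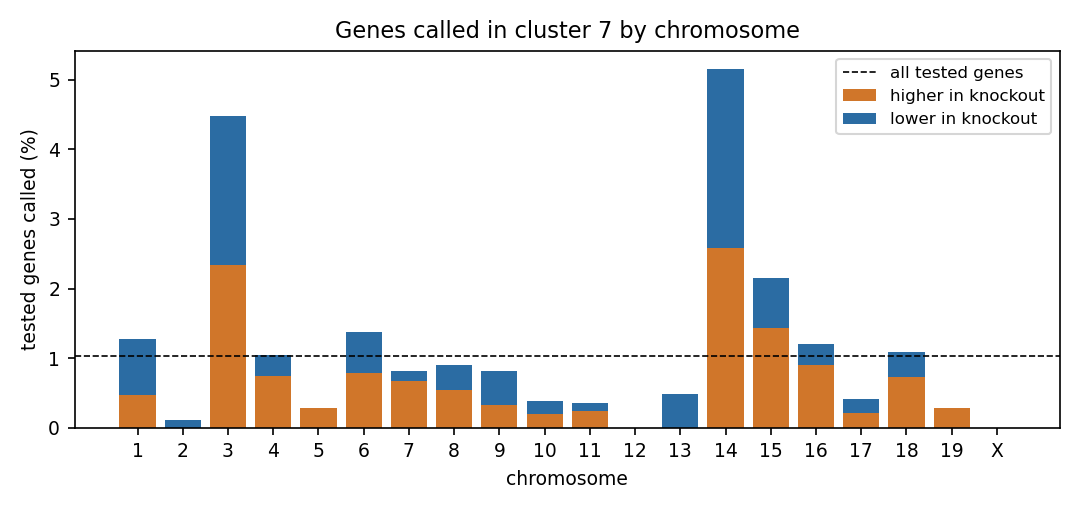
Share of tested genes called in cluster 7 on each chromosome (percent), with genes higher in knockout in orange and lower in blue, and the dashed line at the 1.03% of all tested genes. Chromosomes 3 and 14 stand highest of the 19 autosomes and X, at 4.47% and 5.16%.

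Whether a change differed in cluster 7 from that in the other nuclei was tested as the interaction of genotype and compartment, with the sums of cluster 7 and of all other nuclei of each sample and the sample as a block. Of 13577 genes tested with edgeR, 154 were called (1.13%), 112 with a more positive (0.825%) and 42 with a more negative (0.309%) knockout effect in cluster 7 than elsewhere, and 1387 had an unadjusted p under 0.05. It was called for 87 genes without knockout replicate 2, 95 without wildtype replicate 4, 100 without wildtype replicate 3 and 345 without knockout replicate 4. Of the 154 genes, 19 were called in cluster 7 itself and 79 in the other nuclei, 4 of them in both, and 60 in neither. Of the 112, 10 were called in cluster 7 and 66 in the other nuclei, where the log2 fold change was negative for 108. The change in the other nuclei was the larger for 79 of the 111 with a value in both. Of the 42, 9 were called in cluster 7 and 13 in the other nuclei, where 7 had a negative log2 fold change and 20 the larger change. The other nuclei pool 6 clusters, so a difference can also come from a changed make-up of that pool, which was not tested. Cluster 6 held 9.37% to 12.65% of the nuclei of a wildtype sample and 4.31% to 8.11% of those of a knockout sample. The shares of clusters 1 to 5 overlapped between the genotypes. Effects in single clusters are therefore given for several genes and plotted for 14.

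Gfra2 had the strongest negative difference, with an interaction of -2.19 ± 0.30 on the log2 scale (SE; edgeR-adjusted p = 5.95e-04). In cluster 7 it fell by 2.62 on the log2 scale, and in the other nuclei it had 6.20, 7.36, 7.83 and 6.22 CPM in wildtype and 4.29, 4.49, 5.70 and 5.86 CPM in knockout samples, a log2 fold change of -0.45 (edgeR-adjusted p = 0.0869). In single clusters its log2 fold changes were -0.47 in cluster 3, -0.50 in cluster 6 and 0.82 in cluster 1, none of them called. Bmp3 had 3.398, 8.33, 8.09 and 3.51 CPM in wildtype and 18.9, 32.5, 16.2 and 11.9 CPM in knockout cluster 7, and 12.7, 17.5, 16.9 and 16.9 and 14.6, 15.1, 16.9 and 17.3 CPM in the other nuclei (CPM scaled over all 16 sums). The interaction of Bmp3 was 1.76 ± 0.33 (edgeR-adjusted p = 0.00791), but Bmp3 was also called in cluster 1 (log2 fold change 1.30) and in cluster 2 (0.87). Its interaction had an adjusted p of 0.0547 without wildtype replicate 4.

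Zfp804b, a zinc finger protein gene, moved in opposite directions. It had 249, 187, 157 and 158 CPM in wildtype and 330.4, 525, 311 and 295 CPM in knockout cluster 7, so each knockout sample lay above the wildtype samples (log2 fold change 0.97; edgeR-adjusted p = 0.0112). In the other nuclei it had 35.4, 32.9, 47.2 and 33.9 and 20.2, 17.8, 22.2 and 25.6 CPM and was lower (log2 fold change -0.81, edgeR-adjusted p = 0.00965). Among single clusters it was called lower in clusters 2 and 3 (log2 fold changes -0.62 and -0.73). It was not called in clusters 1, 4, 5 and 6 (-0.10, -0.52, 0.01 and -0.92). The interaction was 1.79 ± 0.22, and it stayed called in all 11 alternative fits. Fgf10, a fibroblast growth factor gene, had 4.76, 3.51, 9.30 and 3.95 CPM in wildtype and 15.9, 10.8, 9.93 and 15.9 CPM in knockout cluster 7, not called there (edgeR-adjusted p = 0.0819), and fell by 0.96 on the log2 scale in the other nuclei (edgeR-adjusted p = 0.0318). Its interaction was 2.16 ± 0.30 (edgeR-adjusted p = 5.95e-04). Ntsr1, a neurotensin receptor gene, and Brinp3 had interactions of 1.62 ± 0.31 and 1.86 ± 0.34, with changes in neither compartment called.

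Grik4, Trpc7 and Alg13 were called in the other nuclei and not in cluster 7. Grik4, a leading gene of the cluster, had 140.0, 119, 129 and 138 CPM in wildtype and 119.8, 154, 114 and 151 CPM in knockout cluster 7, which overlapped, while it fell by 0.77 on the log2 scale in the other nuclei (edgeR-adjusted p = 0.00424; interaction 0.80 ± 0.11, edgeR-adjusted p = 7.56e-04). Among single clusters Grik4 was lower in cluster 3 (log2 fold change -1.98) and cluster 2 (-1.06). Trpc7, also a leading gene, had an interaction of 0.73 ± 0.14 (edgeR-adjusted p = 0.00966) with a log2 fold change of 0.01 in cluster 7 and -0.71 in the other nuclei; without knockout replicate 2 its adjusted p was 0.0593. Nfia rose in both compartments, by 0.36 in cluster 7 and 0.70 in the other nuclei on the log2 scale (interaction -0.34 ± 0.08; edgeR-adjusted p = 0.0249); in clusters 1 and 2 it rose by 0.91 and 1.14 and in clusters 3, 4 and 5 by 0.47, 0.35 and 0.44. The interaction of Nfia had edgeR-adjusted p-values of 0.0829 and 0.137 without wildtype replicates 2 and 4 and of 0.0752 and 0.105 without knockout replicates 2 and 3. Alg13, a glycosylation enzyme gene, was higher in the other nuclei (log2 fold change 0.64) and not called in cluster 7 (-0.15). Tbc1d4, Bmper and Plod2 had interactions of -0.79 ± 0.13, -1.04 ± 0.22 and -1.05 ± 0.25 on the log2 scale. When the other nuclei came only from clusters 1, 2, 3 and 6, the interactions of Tbc1d4, Bmper, Plod2 and Hjurp were not called, with edgeR-adjusted p-values of 0.796, 0.239, 0.538 and 0.959, and that of Hjurp changed sign to 0.07. The call of Plod2 was also lost without wildtype replicate 2, 3 or 4 and without knockout replicate 1, 2 or 3 (edgeR-adjusted p from 0.0617 to 0.179). Bmper lost its call when wildtype replicate 1, wildtype replicate 3 or knockout replicate 2 was dropped (0.0509 to 0.104), and Hjurp when replicate 3 or 4 of wildtype, or 2 or 3 of knockout, was dropped (0.0677 to 0.232). Hjurp was lower in every cluster, by log2 fold changes between -2.40 in cluster 2 and -1.10 in cluster 4.

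**Figure D4:**
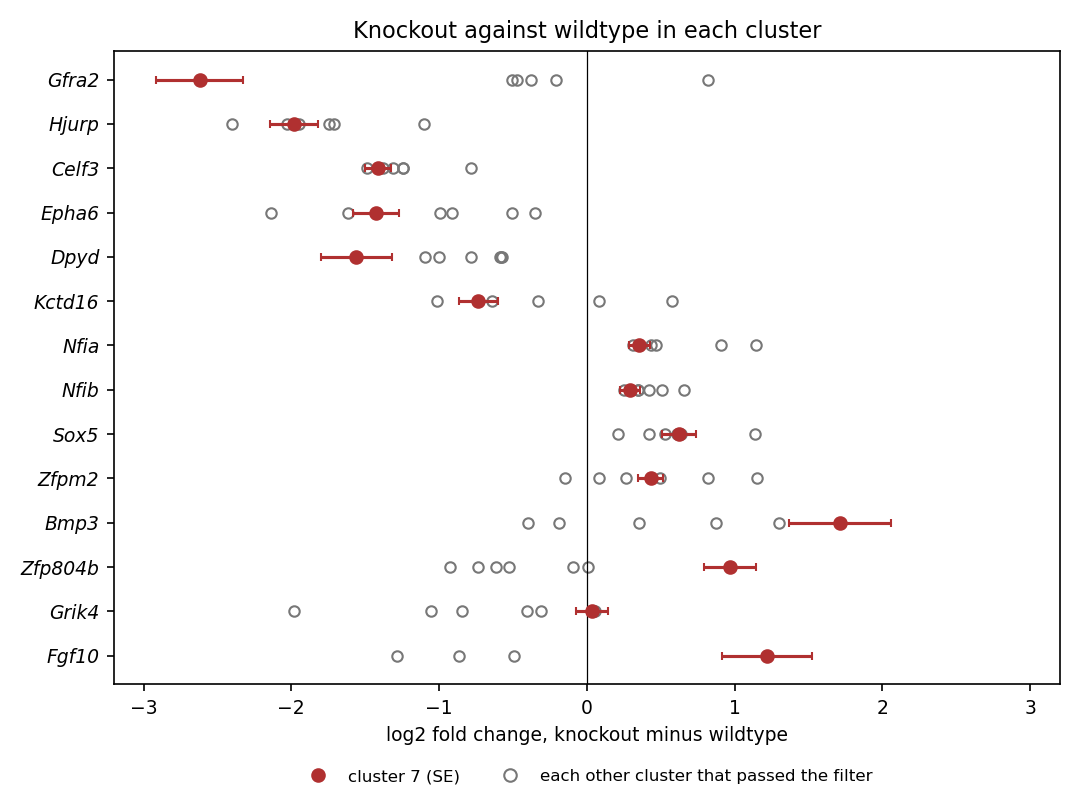
Knockout minus wildtype log2 fold change in cluster 7 (red, with SE) and in each other cluster where the gene passed the filter on low counts (open circles), from a separate fit per cluster. Gfra2 and Fgf10 in cluster 7 lie apart from their open circles, whereas Hjurp and Celf3 lie among them.

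The numbers of UMIs and genes, the mitochondrial share and the hybrid score of the nuclei were compared between the genotypes. The median UMIs per nucleus of cluster 7 were 2976, 3058, 3209 and 3269 in wildtype and 2644, 3606, 3288 and 2720 in knockout samples. The knockout samples thus lay on both sides of the wildtype range, and the mean difference of -63.5 UMIs had a two-sided exact permutation p of 0.857 (adjusted over 4 measures, p = 0.857). Genes detected per nucleus after thinning to 1400 UMIs numbered 935, 937, 926 and 932 in wildtype and 931, 917, 920 and 927 in knockout samples (exact permutation p = 0.114; adjusted p = 0.457). In each of the 4 pairs of the same replicate number the knockout sample had fewer. The mitochondrial share was higher by 0.382 percentage points in knockout (exact permutation p = 0.286; adjusted p = 0.571), and it was higher in the knockout sample of all 4 pairs. The mean deposited hybrid score was 0.107 to 0.216 in wildtype and 0.134 to 0.224 in knockout samples (exact permutation p = 0.486; adjusted p = 0.648). Within pairs, an exact sign-flip permutation test gave p = 0.125 for genes and for the mitochondrial share, which is the smallest p that 4 pairs allow, p = 0.25 for the hybrid score and p = 0.875 for UMIs. Without pairs the smallest possible p is 0.0286, or 0.114 for a single measure adjusted over 4, so neither design could call a lone difference and these p-values do not show that the measures are equal. The part of these differences in the gene calls was not tested.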

How the data were processed

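The deposited values used are UMI counts per gene and nucleus, whole numbers and not normalised, per the file headers; kallisto, bustools and mm10 are named in the submitters' processing notes, without versions. The authors also deposited a cluster number and a hybrid doublet score per nucleus, a score with no fixed unit that stays under 0.5, and other per-nucleus values such as a cell cycle angle. No doublet caller was run and no nuclei were removed. The deposited gene table names no build: 333 of its 14166 genes (2.35%) have the same chromosome and start in GENCODE M21, and positions of the 2 sources were never mixed. The samples hold 20446698 to 34083796 UMIs each, with medians of 2570 to 2905 UMIs per nucleus.

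UMIs of cluster 7 were summed per sample and tested with edgeR 4.0.16 in R 4.3.3 (TMM, filterByExpr, quasi-likelihood test, genotype as the only term, false discovery rate 0.05). SEs come from the F statistic. Of 200 genes changed 2-fold in simulated data, 81% were recovered for knockout against wildtype (10548 genes) and 68% for the interaction (13577 genes). Among the unchanged genes, 9 and 13 were called. Smaller changes, such as those of many genes named above, were not simulated. In the interaction simulation each unchanged gene had 1 mean level in both compartments. The 2 sums of a sample shared no effect of that sample, so the 68% may differ from the recovery in these data. Replicate numbers were treated as pairing the samples only in the replicate block and in comparisons within pairs, not in the main fit. The labels do not say what these numbers mark. Over all nuclei the deviations of same-numbered samples correlated at 0.398, 0.185, 0.192 and 0.179, each over 0.1. Samples with different numbers gave -0.356 to 0.287, so only replicate 1 lay above that range. Within cluster 7 the values were 0.265, 0.0814, 0.106 and 0.0218, with -0.192 to 0.111 for different numbers. The pairing is therefore uncertain. Named genes were called, averaged 10 UMIs or more over the samples and did not overlap between groups, 12 per direction (5 for the interaction, where ratios of the 2 compartments must not overlap), plus called members of the lists, the leading and marker genes and Pantr1. Alternatives were other size factors, DESeq2 1.42.0, no filter, the replicate block, an Xist covariate, low hybrid scores and leaving out each sample; a sign-flip test within pairs was added after seeing the data. Copies were searched with blastn 2.17.0+ (at least 95% identity over 80% of a transcript). The members, lists and rules were chosen with earlier results of these data known. Some genes that these rules select are not reported here.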

Additional observations from a re-analysis of the deposited data

Results flagged for a closer look

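In 92 groups of 4 samples, those of the named genes and of the per-nucleus measures, 6 had a sample that stood apart from the other 3 by more than Dixon's critical value for 4 samples allows; chance gives about 1 in 20. For 3 of these the value is a single UMI: Gm28438, Tpm3-rs7 and Gm11496 each had 0.432 CPM in wildtype replicate 4 and 0 in the other wildtype samples. Gm17167 had 9.82 CPM in knockout replicate 1 against 6.34 to 6.79 in the other knockout samples. Nfib had 3603 CPM in wildtype replicate 2 against 3382 to 3396, and Rerg had 115 CPM in wildtype replicate 1 against 133 to 136.

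A difference between cluster 7 and the other nuclei was called by the interaction test for 17 genes that are named above. On the log2 scale it was 2.16 for Fgf10, 1.86 for Brinp3, 1.79 for Zfp804b, 1.76 for Bmp3 and 1.62 for Ntsr1, and 0.92 for Lhfp, 0.80 for Grik4, 0.73 for Trpc7 and 0.62 for Gabbr2. It was -2.19 for Gfra2, -1.05 for Plod2, -1.04 for Bmper, -0.79 for Alg13, -0.79 for Tbc1d4, -0.68 for Hjurp, -0.58 for Col11a1 and -0.34 for Nfia. The call of Col11a1 was lost in 7 of 11 alternatives: with clusters 1, 2, 3 and 6 as the other nuclei (edgeR-adjusted p = 0.127) and when any sample but wildtype replicate 2 or knockout replicate 4 was dropped (0.0671 to 0.164).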

How the results depend on the processing

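The 109 calls of knockout against wildtype became 255 with the replicate block (138 higher, 117 lower) and 71 with low hybrid scores (38 higher), where fewer nuclei entered. Leaving out 1 sample gave 63 to 142 calls, 33 to 76 higher and 30 to 66 lower. DESeq2 gave 118, no filter 122, RLE size factors 111 and the Xist covariate 126. The 154 interaction calls became 87 to 345 when 1 sample was left out, with 74 to 228 more positive and 13 to 117 more negative; with clusters 1, 2, 3 and 6 as the other nuclei, 64 were more negative. The cause was not tested. Per-nucleus differences without 1 sample ranged from -244 to 76.8 UMIs, -11.2 to -6.5 genes, 0.168 to 0.595 percentage points and -0.00388 to 0.0397 in hybrid score; in these designs no single measure could pass the threshold after adjustment, so this says nothing about stability. With the replicate block, chosen after seeing the data, all 4 adjusted p-values were between 0.25 and 0.875 by the exact sign-flip permutation test. The identity count of 36 genes was 34 by thinned shares and 51 in knockout samples. Of 71 single-gene results, 47 stayed on their side of the threshold in every alternative, 21 lost their call in at least 1 and 3 gained it. The interaction of Hjurp turned to 0.07284 with clusters 1, 2, 3 and 6 as the other nuclei (edgeR-adjusted p = 0.959), the only change of direction among them. The replicate block ended no call among the 109 and changed, of the marker genes, those of Zfp385b and Chrm3. UMI numbers limit genes with few counts, and counting intervals cover counting error only.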
